A study of Mus musculus with 111 samples.

Results

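The negative fraction of the mouse striatum was compared between zQ175 mice and wild-type (WT) mice, both at 12 months of age. zQ175 mice are a knock-in model of Huntington's disease that carries an expanded repeat in the mouse's own Htt gene. The negative fraction holds the cells left after sorting on 2 surface proteins, that is, cells with neither GLT1, a glutamate transporter of astrocytes, nor CD11b, an integrin chain of microglia. Every sample so labelled was used, 4 zQ175 and 4 WT samples of the 111 in the series. Of 18194 genes named by an array probe set, 12628 were bright enough to be tested.

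Other groups of the series were used to see where the effect differed, to estimate the spread or to class genes. They were 4 zQ175 and 4 WT negative fractions at 6 months, and 4 zQ175 and 4 WT astrocyte fractions (GLT1-positive, CD11b-negative) at 12 months. Negative fractions of 6 R6/2 and 5 WT samples at 12 weeks were used as well. R6/2 and WT negative fractions at 6 weeks entered the fit of the R6/2 effect. Astrocyte fractions of zQ175 and WT mice at 6 months entered the fit of the astrocyte effect. WT samples of the negative, astrocyte and microglia fractions at 6 and 12 weeks served to class genes. WT microglia fractions at 12 months gave marker levels. The R6/2 transgene is a fragment of the human gene, exon 1 with an expanded repeat, added to an intact mouse Htt and driven by the human promoter. The labels give the genotype as Q175 and do not say whether 1 or both alleles carry the repeat. Per the labels' protocols, the zone along the ventricle was dissected away and the striata of a litter were pooled by genotype, so a sample is a pool. The labels name no separate animals, and p-values here measure the spread between pools.

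A fraction defined by the absence of markers is a mixture. In the brain, endothelial cells line the vessels and form the blood-brain barrier, pericytes and smooth muscle cells wrap them, and fibroblasts lie around larger vessels. Oligodendrocyte precursors divide and give rise to the cells that make myelin, and neuroblasts are migrating young neurons. Medium spiny neurons, the main striatal neurons and the cells most affected in Huntington's disease, rarely survive dissociation of adult tissue intact. In such bulk samples, fewer cells of a type and less RNA per cell cannot be told apart.

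Levels are given as log2 array signal. A fold change is the zQ175 mean minus the WT mean on that log2 scale, given ± its standard error. Calls rest on limma with Benjamini-Hochberg adjustment over all genes tested and a threshold of 0.05. Between samples, Pearson correlations over the tested genes were 0.968 to 0.985 within zQ175, 0.972 to 0.992 within WT and 0.941 to 0.989 between them.

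Among cells that carry neither sorted protein, marker levels differed by cell type. In the WT samples at 12 months, endothelial markers averaged 11.50 to 11.80 and neuroblast markers 11.27 to 11.61 across samples. The group means of the WT astrocyte fraction were 8.62 and 7.55. Oligodendrocyte markers had a WT group mean of 11.28, below the 11.78 of the WT astrocyte fraction. Medium spiny neuron genes (7.20) and interneuron genes (5.79) were lower, against 6.83 and 4.86 in the WT astrocyte fraction. Astrocyte markers were present as well. They averaged 9.46 to 10.16 in the zQ175 samples and 8.70 to 10.39 in the WT samples, below the 12.54 of the WT astrocyte fraction and above the 8.30 of the WT microglia fraction. Slc1a2, which encodes GLT1, ran from 10.07 to 10.44 in zQ175 and from 9.59 to 11.53 in WT, beside a mean of 13.46 in WT astrocytes. Microglia markers were low in 7 of the 8 samples. The exception, which goes against the label, was zQ175 sample 31, where the 18 named microglia markers averaged 10.68 and all 18 were highest of the 8 samples. They averaged 6.85, 7.03 and 7.20 in the other zQ175 samples and 5.64 to 6.84 in WT, against 12.79 in the WT microglia fraction. WT sample 34 had the lowest oligodendrocyte markers, 10.36, against 11.44 to 11.86 in zQ175 and 11.26 to 11.91 in the other WT samples. Htt itself had a fold change of -0.0007 ± 0.21 (adjusted p = 0.998). Its 4 zQ175 values, 7.90 to 9.03, enclosed the WT values of 8.17 to 8.50.

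**Figure D1:**
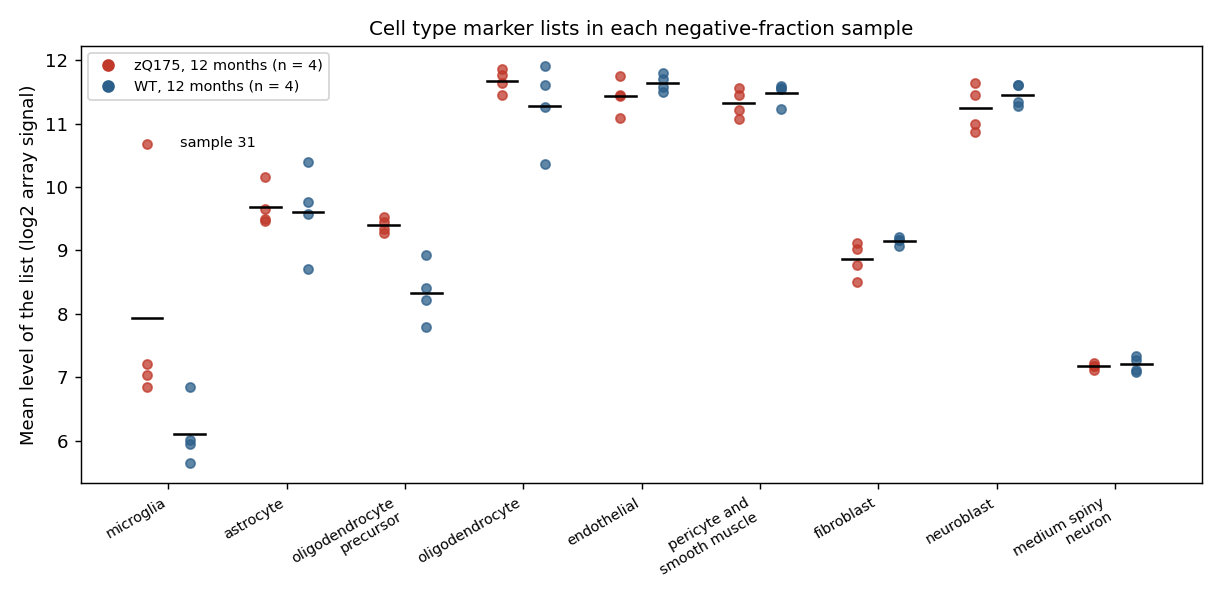
Mean level (log2 array signal, vertical axis) of 9 cell type marker lists in each negative-fraction sample at 12 months, zQ175 in red and WT in blue, with a black bar at each group's mean. Sample 31 stands at 10.68 for microglia markers, and only the oligodendrocyte precursor and microglia lists separate the groups without overlap.

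The zQ175 negative fraction carried a broad change at 12 months. Of the 12628 genes tested, 875 (6.93%) were called, 486 (3.85%) higher and 389 (3.08%) lower. The median fold change was 1.001 over the genes called higher and -0.79 over those called lower, beside 0.05 over all genes tested. By more than 2-fold, 243 rose and 103 fell. The zQ175 and WT samples did not overlap for 809 of the called genes, 453 higher and 356 lower, where 2348 of all genes tested (18.6%) did not overlap, 10.4% higher and 8.24% lower. At an unadjusted p below 0.05 there were 3896 genes.

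How many genes passed depended on single pools. The count was 298 without zQ175 sample 30, 169 without sample 32 and 1560 without sample 33. It was 168 without WT sample 34, 172 without WT sample 35 and 525 without WT sample 36. Without zQ175 sample 31, whose microglia markers stood apart, 608 genes (4.82%) were called, 318 higher (2.52%) and 290 lower (2.3%). Of the 875 genes, 865 kept their direction whichever 1 of the 16 samples in the fit was left out. This count was largely fixed beforehand, so it does not measure how steady direction was. For the 809 called genes without overlap between zQ175 and WT, leaving out 1 sample cannot reverse the direction. Leaving out a sample of the younger age does not change these fold changes at all. Whether the remaining genes reversed or became too dim to be tested was not separated. Another round of quantile normalization turned the balance round, to 441 higher and 604 lower of 1045. For 125 genes, 73 higher and 52 lower, the call held without any 1 of the 16 samples. Many calls named below are not among these 125. They include Cd79a, Dcn, Cxcl1, Cxcl10, Emcn, Fzd4, Hey2, Hpca, Nlgn1, Ifit3, Irf7, Ube2c, Tpx2, Sptlc2 and Atg5. With the mean of the microglia markers as a covariate, which barely separates the genotypes (6.85 and above in zQ175, 6.84 and below in WT), 37 genes were called, 33 of them among the 125.

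**Figure D2:**
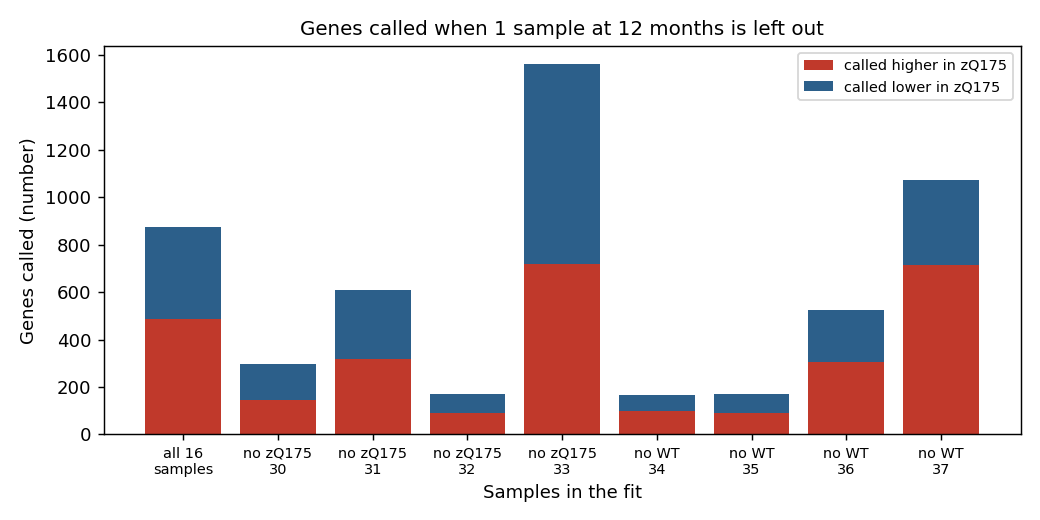
Number of genes called (vertical axis) in the fit of all 16 samples and when each 12-month sample is left out, with genes called higher in zQ175 in red and lower in blue. The total is 875 with all samples and lies between 168 without WT sample 34 and 1560 without zQ175 sample 33.

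By fold change, Cnmd and Acan led the increases, and Reln is described with them because all encode proteins found outside the cell. Acan encodes aggrecan, the chondroitin sulphate proteoglycan of cartilage and of the perineuronal net. On chromosome 7, Acan measured 10.25, 9.92, 10.26 and 10.49 in the zQ175 samples, against 5.75, 5.34, 5.30 and 6.61 in WT. The groups lay more than 3 log2 units apart, with a fold change of 4.48 ± 0.23 (adjusted p = 4.98e-08). Cnmd encodes chondromodulin, a cartilage protein that restrains vessel growth. It measured 9.30, 9.47, 9.50 and 10.15 in zQ175, against 5.16, 3.87, 5.03 and 6.15 in WT, a fold change of 4.55 ± 0.42 (adjusted p = 5.38e-05). Reln, the secreted glycoprotein reelin, which guides neuronal migration, was at 8.08, 8.19, 8.99 and 8.99 in zQ175, against 4.72, 5.79, 5.54 and 6.96 in WT, a fold change of 2.81 ± 0.38 (adjusted p = 0.00167). All 3 genes stayed called without any single sample.

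The increases of Frzb, Rap1gap, Pcdh15, Lad1, Cldn14 and Brinp3 lay between 2.80 and 3.07. Frzb, a secreted antagonist of Wnt ligands, measured 8.39, 8.33, 8.45 and 8.62 in zQ175, against 4.93, 5.74, 5.53 and 6.20 in WT, a fold change of 2.85 ± 0.25 (adjusted p = 4.60e-05). Rap1gap, which switches off the small GTPase Rap1, was at 9.22, 8.76, 9.39 and 9.12 in zQ175, against 5.60, 6.02, 6.37 and 6.95 in WT, a fold change of 2.89 ± 0.26 (adjusted p = 4.60e-05). The zQ175 values of both genes were tightly grouped and the WT values were spread over more than 1 log2 unit. Pcdh15, a protocadherin known from the tip links of hair cells, had a fold change of 3.07 ± 0.49. Lad1, a basement membrane anchoring filament protein of skin, had 2.90 ± 0.43, and Cldn14, a tight junction claudin, 2.81 ± 0.41. Brinp3, a neural cell cycle inhibitor, was 2.80 ± 0.34 higher. For each of these 6 genes the lowest zQ175 value was above the highest WT value.

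Tnfrsf13c, the receptor of B cells for the survival factor BAFF, measured 10.03, 10.37, 10.39 and 10.49 in zQ175, against 6.57, 7.49, 7.62 and 8.07 in WT. Its fold change was 2.88 ± 0.30 (adjusted p = 1.57e-04). The same gene also rose in the zQ175 astrocyte fraction, by 3.89 ± 0.25 (adjusted p = 3.47e-07). Other genes known from B cells were called higher in the negative fraction too. Cd79a, a chain of the B cell antigen receptor, was at 8.98, 8.74, 9.35 and 8.09 in zQ175, against 7.74, 6.85, 7.15 and 7.76 in WT, a fold change of 1.41 ± 0.30 (adjusted p = 0.0211). Cd22, a B cell lectin, was 1.60 ± 0.27 higher and Bank1, a B cell scaffold protein, 1.53 ± 0.28 higher. In young WT mice of this series, Bank1 was enriched in the microglia fraction, Tnfrsf13c in the negative fraction and Cd22 in none. Which cells gave these signals was not tested. Cd22 and Bank1 kept their calls without sample 31. Of 10 tested blood cell markers, Cd79a was the 1 called, beside 3.85% of all genes called higher, with a list median of 0.28. Chosen after its values were seen, the B cell marker Ms4a1 stood at 7.87 to 9.24 in zQ175 and 6.65 to 7.78 in WT and missed the threshold (adjusted p = 0.0840).

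Csf1r and C1qb completed the 12 largest increases. Csf1r, the receptor that microglia need to survive, measured 8.93, 12.57, 9.79 and 9.34 in zQ175, against 6.18, 6.41, 6.78 and 8.84 in WT, a fold change of 3.10 ± 0.76 (adjusted p = 0.0309). C1qb, a subunit of the complement protein C1q, had 9.11, 12.50, 9.78 and 9.20 in zQ175, against 6.22, 7.56, 6.62 and 8.92 in WT, a fold change of 2.82 ± 0.73 (adjusted p = 0.0354). Sample 31 was by far the highest for both. Without it their fold changes were 2.30 and 2.04 and neither was called, with adjusted p = 0.0502 for Csf1r and 0.0562 for C1qb. Of 18 named microglia markers, 12 were bright enough to be tested. All 12 had positive fold changes and 2 were called, beside 3.85% of all genes called higher. All 18 were highest in sample 31, which raised the level that admits a gene to the test as well as its fold change. The median over the 12 was 1.80. Without sample 31 none was called and the median was 0.69.

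**Figure D3:**
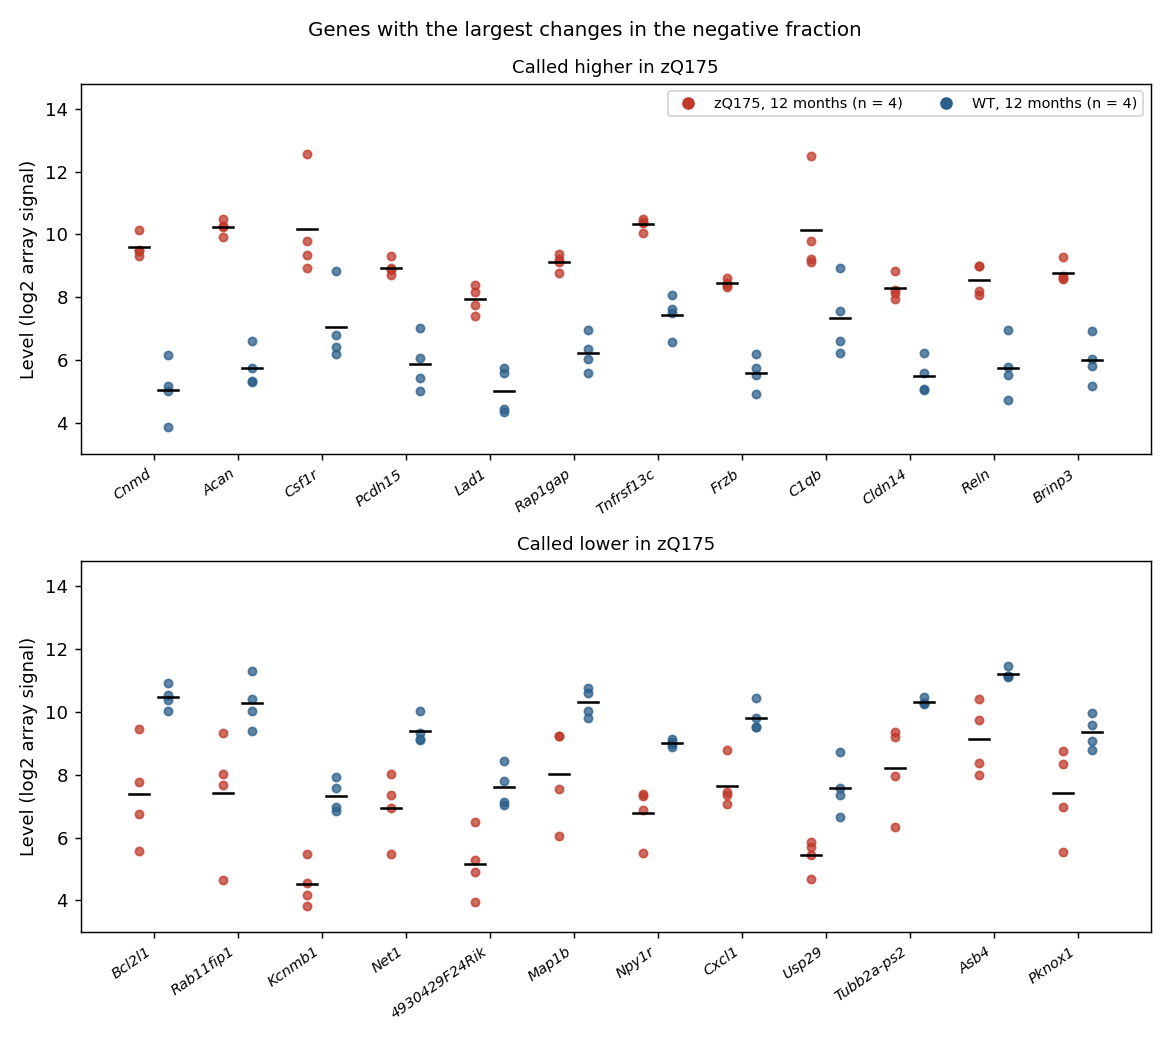
Level (log2 array signal, vertical axis) of the 12 genes with the largest increase and the 12 with the largest decrease, with zQ175 samples in red left of WT samples in blue and a black bar at each group's mean. No gene shown overlaps between the groups, as the choice of genes fixed, and among the decreased genes Usp29 alone spreads less widely in zQ175 (SD 0.52) than in WT (SD 0.86).

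Across the 12 leading increases, WT sample 37 was the highest WT sample for all 12 and WT sample 34 the lowest for 10. Across the 12 leading decreases, zQ175 sample 32 was the lowest zQ175 sample for 11. Some cell type markers ran the same way in WT: the precursor, oligodendrocyte and microglia lists were each lowest in sample 34 and highest in sample 37. Other lists did not. The astrocyte and endothelial lists were highest in sample 35, and the neuroblast list was lowest in sample 37. The part of these lists in the levels of the leading genes was not tested.

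Of the 12 largest decreases, those of Kcnmb1, Npy1r, Net1 and 4930429F24Rik kept their calls without any single sample. Kcnmb1, the smooth muscle subunit of the large-conductance potassium channel, measured 4.18, 3.81, 4.55 and 5.49 in zQ175, against 7.92, 7.58, 6.96 and 6.85 in WT, a fold change of -2.82 ± 0.50 (adjusted p = 0.00835). Npy1r, a receptor for neuropeptide Y, was at 6.89, 7.31, 5.50 and 7.38 in zQ175, against 9.04, 8.96, 9.15 and 8.88 in WT, a fold change of -2.23 ± 0.30 (adjusted p = 0.00167). The WT values of Npy1r spanned under 0.3 log2 units, all well above those of zQ175. Net1, an exchange factor for RhoA, had a fold change of -2.46 ± 0.41 (adjusted p = 0.00631), and 4930429F24Rik, of unassigned function, had -2.44 ± 0.43 (adjusted p = 0.00782).

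Others of the 12 were carried unevenly by the zQ175 pools. Bcl2l1, the survival gene Bcl-x, measured 6.74, 7.78, 5.57 and 9.45 in zQ175, against 10.37, 10.93, 10.04 and 10.53 in WT, a fold change of -3.08 ± 0.63 (adjusted p = 0.0167). Rab11fip1, an effector of recycling endosomes, was at 8.02, 7.69, 4.66 and 9.32 in zQ175, against 10.41, 11.31, 9.38 and 10.02 in WT, a fold change of -2.86 ± 0.77 (adjusted p = 0.0397). In both, samples 32 and 33 differed by more than 3 log2 units while sharing a genotype. Map1b, a microtubule protein of growing axons, had a fold change of -2.29 ± 0.60, Usp29, a ubiquitin protease, -2.15 ± 0.47, and the homeodomain gene Pknox1 -1.95 ± 0.54. Asb4, a substrate adaptor of a ubiquitin ligase, had -2.08 ± 0.44. The tubulin pseudogene Tubb2a-ps2 had -2.12 ± 0.50, and its probes may read the near-identical Tubb2a, so it is uncertain which gene changed.

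The decreases that held without any single sample included genes of the connective tissue around vessels. Aspn, Ddr2, Tbx18, Foxc2, Col1a1 and Col3a1 are named here after their values were seen. Lox, which cross-links collagen and elastin, measured 7.28, 7.09, 6.80 and 7.56 in zQ175, against 8.67, 8.89, 9.19 and 8.74 in WT, a fold change of -1.69 ± 0.17 (adjusted p = 1.13e-04). Aspn, a small collagen-binding proteoglycan, was at 7.84, 7.95, 8.18 and 8.73 in zQ175, against 10.10, 9.83, 9.81 and 9.80 in WT, a fold change of -1.71 ± 0.20. Ddr2, a collagen receptor, fell by 0.94, and the mesenchymal transcription factor genes Tbx18 and Foxc2 fell by 1.08 and 1.19. Of 9 tested fibroblast markers, 2 were called lower, beside 3.08% of all genes called lower. They were Dcn with -1.15 ± 0.26 and Lum with -1.004 ± 0.28. Without sample 31, Lum missed the threshold (adjusted p = 0.0736). The collagens Col1a1, at -0.11, and Col3a1, at 0.48, were not called, and the list median was -0.11. Without sample 31 the list median was 0.10. None of 16 tested pericyte and smooth muscle markers was called, with a median of -0.14 and Higd1b closest at -0.58 ± 0.17 (adjusted p = 0.0508).

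Of 17 tested cytokine and NF-kB genes, Vcam1, Cxcl1 and Cxcl10 were called, all lower, beside 3.08% of all genes called lower. The list median was -0.12. Vcam1 kept its call without any single sample, and Cxcl1 and Cxcl10 did not. Vcam1, an adhesion molecule for leukocytes, measured 11.002, 9.95, 10.07 and 10.34 in zQ175, against 11.61, 11.86, 11.76 and 12.03 in WT, a fold change of -1.47 ± 0.25 (adjusted p = 0.00713). Cxcl1, a chemokine that attracts neutrophils, was at 8.78, 7.34, 7.06 and 7.44 in zQ175, against 10.44, 9.81, 9.51 and 9.53 in WT, a fold change of -2.17 ± 0.43 (adjusted p = 0.0140). Cxcl10, a chemokine for T cells, was at 6.92, 7.54, 6.69 and 7.33 in zQ175, against 8.45, 7.77, 7.87 and 8.35 in WT, a fold change of -0.99 ± 0.22 (adjusted p = 0.0250). Icam1, a related adhesion molecule, did not overlap between the groups but missed the threshold, at -0.95 (adjusted p = 0.0716). Chosen, like Icam1, after their values were seen, the interleukin-1 receptor Il1r1 fell by 1.63, the death receptor Fas by 1.52, the serum amyloid gene Saa2 by 1.38 and the sphingosine receptor S1pr1 by 1.61, each called without any single sample.

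Promoters were looked up for the called genes of this list, and those of Cxcl1 and Cxcl10, textbook targets of NF-kB, are shown. The source used held no promoter for Vcam1. Each window of 300 bases covers the RefSeq start of the gene (GRCm38.p6) and mostly the bases before it, and is written 5′ to 3′ on the strand of the gene. Capitals mark matches to the NF-kB consensus, searched on both strands, where overlapping matches form 1 run. Cxcl1 lies at chr5:90890995-90891294 on the plus strand and Cxcl10 at chr5:92348840-92349139 on the minus strand.
Cxcl1: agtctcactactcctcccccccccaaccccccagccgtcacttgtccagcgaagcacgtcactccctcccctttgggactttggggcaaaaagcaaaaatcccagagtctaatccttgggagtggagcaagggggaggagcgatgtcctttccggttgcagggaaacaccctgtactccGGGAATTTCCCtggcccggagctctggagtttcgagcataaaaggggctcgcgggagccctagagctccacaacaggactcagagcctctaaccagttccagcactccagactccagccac
Cxcl10: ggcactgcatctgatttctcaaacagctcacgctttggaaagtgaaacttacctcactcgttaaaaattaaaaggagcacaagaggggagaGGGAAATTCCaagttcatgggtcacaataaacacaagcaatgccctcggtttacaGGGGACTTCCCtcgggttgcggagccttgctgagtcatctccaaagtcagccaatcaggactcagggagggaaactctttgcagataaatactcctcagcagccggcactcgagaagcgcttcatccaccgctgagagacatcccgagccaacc
Cxcl1 held 1 run and Cxcl10 held 2. Of all 32851 promoters in the table, 8.46% held a match. The share was 11.8% over 289 genes called lower, 8.81% over 386 called higher and 10.1% over 9509 tested genes that were not called.

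Of 21 tested endothelial markers, 2 were called lower and none higher, beside 3.08% of all genes called lower. The median was -0.15, and 5 of the 21 fold changes were positive. Emcn, an endothelial sialomucin, was at 10.70, 10.46, 9.77 and 11.40 in zQ175, against 12.02, 12.11, 11.65 and 11.93 in WT, a fold change of -1.34 ± 0.29 (adjusted p = 0.0227). Cd93, a lectin-like receptor of vessels, had -0.55 ± 0.15 (adjusted p = 0.0382). Of 20 tested blood-brain barrier genes, 2 fell: Ocln, a tight junction protein gene, by 0.97 and the efflux pump gene Abcg2 by 0.50. Without sample 31 neither passed, nor did Cd93, with adjusted p of 0.0501, 0.0872 and 0.0706 for Ocln, Abcg2 and Cd93. The mean of the endothelial list was 11.09 in sample 31, against 11.44 to 11.75 in the other zQ175 samples.

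Genes of the Wnt and Notch pathways gave 4 calls, all lower. Of 19 tested, 4 were called lower and none higher, beside 3.08% of all genes called lower. The median was -0.35, beside 0.05 over all genes. Tspan12 and Fzd4, which together receive the norrin signal that maintains the vessel barrier, fell by 0.82 and 0.94. Tspan12 measured 8.76, 8.70, 8.40 and 8.65 in zQ175, against 9.47, 9.49, 9.46 and 9.35 in WT (adjusted p = 0.00661). Hey2, a Notch target of arteries, fell by 0.67 and the Notch ligand gene Jag1 by 0.39. Of the 4, Tspan12 was called without any single sample, while Jag1 was not called without sample 31 (adjusted p = 0.0631). Of 18 basement membrane genes, Col4a5, a collagen IV chain, fell by 0.92 ± 0.14 and Lamc1, a laminin chain, by 0.59 ± 0.14, with a list median of 0.10. Without sample 31, Lamc1 missed the threshold (adjusted p = 0.0540).

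Oligodendrocyte precursor markers were higher or not called. All 10 tested markers had positive fold changes and 3 were called, beside 3.85% of all genes called higher. The median was 0.95, beside 0.05 over all genes tested. The mean of the list was 9.34, 9.28, 9.45 and 9.53 in the zQ175 samples, against 7.80, 8.21, 8.41 and 8.92 in WT. The groups did not overlap, and the zQ175 pools lay within 0.3 log2 units of each other. Gpr17, a receptor of precursors about to differentiate, measured 9.84, 9.64, 10.04 and 9.98 in zQ175, against 6.96, 7.66, 7.68 and 8.65 in WT, a fold change of 2.14 ± 0.33 (adjusted p = 0.00398). Lhfpl3 was at 9.01, 9.04, 8.49 and 9.46 in zQ175, against 6.02, 7.38, 6.90 and 7.80 in WT, a fold change of 1.97 ± 0.37 (adjusted p = 0.0116). C1ql1, a C1q-like ligand, was 1.17 ± 0.32 higher (adjusted p = 0.0432) and missed the threshold without sample 31 (adjusted p = 0.0628).

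The classic surface markers of precursors were not called. Named after their values were seen, Pdgfra, the platelet-derived growth factor receptor, had a fold change of 0.14 (adjusted p = 0.666), and Cspg4, the NG2 proteoglycan, 0.14 (adjusted p = 0.776). The lineage factor gene Olig1 stood at 1.19 (adjusted p = 0.105) and Nkx2-2 at 1.57 (adjusted p = 0.0672), both without overlap between the groups. None of 19 tested markers of mature oligodendrocytes was called, with a median of 0.32 and 16 positive. Sox10, which drives the whole lineage, was closest. It measured 11.94, 12.01, 12.18 and 11.96 in zQ175, against 9.34, 10.76, 11.33 and 11.77 in WT, a fold change of 1.22 ± 0.46 (adjusted p = 0.0981). WT sample 34 was the lowest, more than 2 log2 units below the lowest zQ175 sample. At 6 months the precursor list ran from 8.02 to 8.49 in zQ175 and from 8.08 to 8.34 in WT, which overlap. With the mean of the precursor list as a covariate, which itself separates the genotypes, 1 gene was called.

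Neuronal genes gave mixed counts. Of 23 tested medium spiny neuron genes, 3 were called lower and none higher, beside 3.08% of all genes called lower. Their median was 0.01. Scn4b, the beta4 subunit of sodium channels, fell most steadily. It measured 8.67, 8.66, 8.73 and 8.57 in zQ175, against 9.47, 9.31, 9.56 and 9.52 in WT, a fold change of -0.81 ± 0.11 (adjusted p = 0.00169) that held without any single sample. Hpca, the calcium sensor hippocalcin, was at 5.25, 6.73, 5.96 and 6.47 in zQ175, against 7.60, 7.45, 7.14 and 7.31 in WT, a fold change of -1.27 ± 0.30 (adjusted p = 0.0295). Drd1, the dopamine D1 receptor gene, was at 7.66, 6.59, 7.07 and 6.73 in zQ175, against 7.47, 7.73, 8.33 and 7.96 in WT, a fold change of -0.86 ± 0.24 (adjusted p = 0.0460). Scn4b and Hpca did not overlap between groups, whereas zQ175 sample 30 reached the WT range for Drd1. Without sample 31, Drd1 was not called (adjusted p = 0.0826).

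Pan-neuronal genes had 1 call in 21, the non-coding host gene Snhg11, with 1.55 ± 0.36 (adjusted p = 0.0277), which missed without sample 31 (adjusted p = 0.0517). Beside 3.85% of all genes called higher, synaptic genes had 1 call in 17. It was Nlgn1, a postsynaptic adhesion molecule gene, at 6.94, 7.20, 7.74 and 7.76 in zQ175, against 4.96, 5.85, 5.92 and 6.11 in WT, a fold change of 1.70 ± 0.38 (adjusted p = 0.0246). Chosen after their values were seen, Grid1, a delta glutamate receptor gene, rose by 2.64, the AMPA receptor gene Gria3 by 1.43 and the kainate receptor partner gene Neto1 by 0.92, each in every set of samples with 1 left out. None of 13 tested neuroblast markers was called, with a median of -0.24 and Sp8 closest at -0.81 ± 0.28 (adjusted p = 0.0790). Nor was any of 8 interneuron genes, with a median of 0.05. Of 26 immediate early genes, Arc, the activity-regulated cytoskeletal gene, was called, with 1.61 ± 0.44 (adjusted p = 0.0416). Without sample 31 it was not (adjusted p = 0.0517).

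Lists of interferon-stimulated, p53 target, proliferation, autophagy and lysosome, and myelin lipid synthesis genes held 1 or 2 calls each. Of all genes, 3.85% were called higher and 3.08% lower. Ifit3, an antiviral effector gene, measured 11.17, 10.63, 10.83 and 10.82 in zQ175, against 9.80, 10.22, 9.56 and 9.996 in WT, a fold change of 0.97 ± 0.23 (adjusted p = 0.0271). Irf7, the transcription factor of the interferon response, had 0.88 ± 0.25 (adjusted p = 0.0485). These were the 2 called of 25 interferon-stimulated genes (median 0.20). Among 9 p53 target genes, the cell cycle inhibitor Cdkn1a fell by 0.89 and Trp53inp1 by 0.41, with a list median of -0.39. Of 17 proliferation genes, Ube2c and Tpx2, which act in mitosis, fell by 1.03 and 0.89, with a median of -0.14. Of 18 autophagy and lysosome genes, Hexa rose by 0.55 and Atg5 fell by 0.57. Of 18 genes of myelin lipid synthesis, Sptlc2, of the first step of sphingolipid synthesis, rose by 0.69. Without sample 31, Cdkn1a (adjusted p = 0.0517), Trp53inp1 (0.0527) and Hexa (0.0674) missed the threshold.

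Altogether, 19 of 38 lists held a call and 19 held none. Lists without a call included oxidative phosphorylation (24 genes tested, median 0.10), cholesterol synthesis (20, median 0.09) and unfolded protein response genes (17, median -0.07). Heat shock genes (14, median -0.13), glycolysis genes (15, median 0.25), cytosolic ribosomal proteins (13, median -0.06) and homeobox regulators (13, median 0.05) held none either. MHC class I genes (11, median 0.16), DNA mismatch repair genes (9, median 0.44), ependymal markers (9, median -0.07) and growth factor genes (8, median 0.12) were also without a call. So were complement genes (6, median 0.01), border macrophage markers (3, median -0.59), Htt with 3 related genes (median 0.24) and the Y-linked genes with Xist (3 tested, median -0.01). Among these lists, the members with the lowest p came close to the threshold in several cases. Pkm, a glycolytic pyruvate kinase gene, stood at 0.40 ± 0.12 (adjusted p = 0.0569) and Fdps, of cholesterol synthesis, at -0.97 ± 0.30 (adjusted p = 0.0587), both without overlap between the groups. The mismatch repair gene Msh6 stood at -0.52 ± 0.17 (adjusted p = 0.0642) and was called without sample 31 (adjusted p = 0.0468). Tap1, a peptide transporter gene of antigen presentation, stood at 0.76 ± 0.25 (adjusted p = 0.0708), and Dnajc3, a co-chaperone gene of the unfolded protein response, at -0.84 ± 0.30 (adjusted p = 0.0855). Astrocyte markers had 1 call in 21, Clu, the chaperone clusterin, at 0.68 ± 0.19 (adjusted p = 0.0472), and a list median of -0.003. Without sample 31, Clu was not called (adjusted p = 0.0567). Slc1a2, which encodes the sorted protein GLT1, had -0.23 ± 0.33 (adjusted p = 0.659).

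Calls in each direction were counted by where a gene is normally expressed. Genes were classed by the fraction in which young WT mice (6 and 12 weeks, 10 samples per fraction) had them more than 1 log2 unit above both other fractions. Of 1082 genes enriched in the negative fraction, 116 fell and 17 rose, a share of 10.7% lower beside 3.08% of all genes. Of 895 genes enriched in astrocytes, 69 rose (7.71%) and 15 fell (1.68%), and of 1202 enriched in microglia, 94 rose (7.82%) and 18 fell (1.498%), beside 3.85% of all genes higher. Without sample 31, where 2.52% of all genes were higher and 2.3% lower, the negative-enriched class had 72 lower (6.65%) and 14 higher (1.29%). In that fit the astrocyte-enriched class had 49 higher (5.49%) and 14 lower (1.57%), and the microglia-enriched class 56 higher (4.71%) and 17 lower (1.43%). Beside these counts, the microglia marker mean was 6.85 to 10.68 in zQ175 and 5.64 to 6.84 in WT, and the astrocyte marker mean was 9.46 to 10.16 in zQ175 and 8.70 to 10.39 in WT. Their part in the counts was not tested. Of the 52 decreases called without any single sample, 26 were in negative-enriched genes, and of the 73 such increases, 19 were in astrocyte-enriched, 12 in microglia-enriched and 6 in negative-enriched genes.

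Near the modified locus, 5 of the 40 nearest tested neighbours of Htt on chromosome 5 were called. Dok7, a muscle synapse adaptor gene, measured 7.57, 7.87, 8.09 and 7.95 in zQ175, against 6.29, 6.31, 6.12 and 6.36 in WT, a fold change of 1.60 ± 0.22 (adjusted p = 0.00187). Zfyve28, Htra3 and Man2b2 were higher by 0.79, 1.38 and 0.83, and Slbp was lower, at -0.62. These 5 genes were chosen by position and then by their calls. Over all of chromosome 5, 62 of 801 tested genes (7.74%) were called, beside 6.93% overall.

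The next comparison asked whether the effect was there at 6 months. None of the 12628 genes was called between zQ175 and WT at 6 months (0%), where 349 had an unadjusted p below 0.05. Tested as a difference of effects, 12 months minus 6 months, 4 genes were called (0.0317%). The effects on 3 of them, Acan, Rap1gap and Frzb (0.0238%), were more positive at 12 months, and that on Lox (0.00792%) was more negative. Acan was at 6.62, 6.48, 6.55 and 6.58 in zQ175 at 6 months, against 5.07, 5.02, 4.85 and 5.31 in WT, which do not overlap, a fold change of 1.495 ± 0.23 (adjusted p = 0.0583). The effect on Acan was 2.98 ± 0.32 larger at 12 months (adjusted p = 0.00174).

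For Rap1gap the zQ175 samples had 6.14 to 6.99 at 6 months, against 5.84 to 6.39 in WT, and the difference of effects was 2.59 ± 0.37 (adjusted p = 0.0226). For Frzb the ranges were 5.66 to 6.60 in zQ175 and 5.22 to 5.91 in WT, with a difference of 2.42 ± 0.36 (adjusted p = 0.0242). For Lox they were 8.49 to 8.89 in zQ175 and 8.68 to 9.02 in WT, with a difference of -1.58 ± 0.24 (adjusted p = 0.0242). All 3 pairs of ranges overlap at 6 months and none does at 12 months. Cnmd, at 5.97 to 7.14 in zQ175 and 4.18 to 5.71 in WT at 6 months without overlap, had a difference of 2.82 ± 0.60 that did not pass (adjusted p = 0.121).

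For the age difference, 2716 genes had an unadjusted p below 0.05, and the count of 4 moved with single samples. Leaving out zQ175 samples 26, 27, 28 and 29 of the 6-month groups gave 34, 1, 1 and 2 calls. Leaving out WT samples 22, 24 and 25 of that age gave 10, 1 and 7. Of the 12-month groups, leaving out zQ175 samples 30 and 33 gave 1 and 25 calls, and leaving out WT samples 35, 36 and 37 gave 1, 1 and 9. With array weights the age difference called 1002 genes, Acan, Rap1gap, Frzb and Lox among them, and with the 60th percentile filter it called 0.

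The astrocyte fraction from mice of the same age served to ask which effects differed between sorted populations. There, fitted with the astrocyte samples at 6 months, 731 of 12380 genes (5.9%) were called, 536 higher (4.33%) and 195 lower (1.58%). The negative-minus-astrocyte difference of effects was called for 116 of 12587 genes (0.922%), 60 more positive in the negative fraction (0.477%) and 56 more negative (0.445%). The largest positive differences were for Cnmd, with 4.34 ± 0.48 (adjusted p = 3.68e-04), and Acan, with 3.10 ± 0.33 (adjusted p = 3.27e-04). Cnmd measured 8.11, 8.14, 8.21 and 8.68 in zQ175 astrocytes, against 8.22, 8.08, 8.06 and 7.94 in WT astrocytes, so the groups overlap there. Acan was at 5.80, 5.78, 5.96 and 5.77 in zQ175 astrocytes, against 4.48, 4.10, 4.66 and 4.54 in WT astrocytes, where it was too dim to enter that fraction's own fit.

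Dpp6, a potassium channel subunit gene, Brinp3 and the organic anion transporter gene Slco4a1 were the next, with differences of 2.86 ± 0.54, 2.82 ± 0.41 and 2.77 ± 0.44. Brinp3 averaged 9.99 in zQ175 astrocytes and 10.01 in WT astrocytes. The largest difference in the other direction was that of Bmp4. Bmp4, a bone morphogenetic protein gene, measured 6.78, 7.34, 7.64 and 7.51 in zQ175 astrocytes, against 3.19, 3.12, 2.61 and 3.53 in WT astrocytes, while in the negative fraction it averaged 8.51 in zQ175 and 7.96 in WT. Its difference was -3.66 ± 0.34 (adjusted p = 8.25e-05). Uchl1, a neuronal ubiquitin hydrolase gene, had -2.80 ± 0.25, the neuroendocrine factor gene Insm1 -2.44 ± 0.23, Snhg11 -2.33 ± 0.48 and Tmem132c -2.33 ± 0.42. Pcdh15, Lad1 and Cldn14 rose in the astrocyte fraction as well, by 2.19, 2.06 and 2.22, and their differences of 0.87 ± 0.55, 0.84 ± 0.48 and 0.59 ± 0.38 did not pass.

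The count of 116 became 70, 75, 61 and 53 without negative-fraction zQ175 samples 30 and 32 and WT samples 34 and 36, and was 259 without zQ175 sample 33. Leaving out astrocyte zQ175 samples 30 to 33 in turn gave 74, 47, 46 and 72, and astrocyte WT samples 34 to 37 gave 70, 53, 52 and 74. With the number that negative and astrocyte samples share as a block, fewer genes were called. Of the 10 named differences, 6 kept their calls, and those of Dpp6, Slco4a1, Snhg11 and Tmem132c missed the threshold.

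R6/2 mice at 12 weeks, with their own WT controls and no sample in common, gave a second model for the same fraction. In a fit of the R6/2 and WT negative fractions at 6 and 12 weeks, 3268 of 12480 genes (26.2%) were called at 12 weeks, 1929 higher and 1339 lower. Several leading genes had fold changes of similar size. Acan ran from 9.61 to 10.63 (median 10.21) in 6 R6/2 samples, against 5.18 to 6.76 (median 5.62) in 5 WT samples, a fold change of 4.47 ± 0.31. The zQ175 effect minus the R6/2 effect on Acan was 0.0048 ± 0.42 (adjusted p = 0.996). Cnmd ran from 9.20 to 10.04 (median 9.48) in R6/2, against 4.05 to 5.74 (median 5.41) in WT, a fold change of 4.47 ± 0.26, with a difference between models of 0.08 ± 0.53. Rap1gap, Lad1 and Pcdh15 rose by 2.89, 2.996 and 3.49 in R6/2, beside 2.89, 2.90 and 3.07 in zQ175. A difference that misses the threshold does not show that the models act alike, and its standard error here was 0.42 to 0.83 for these 5 genes.

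**Figure D4:**
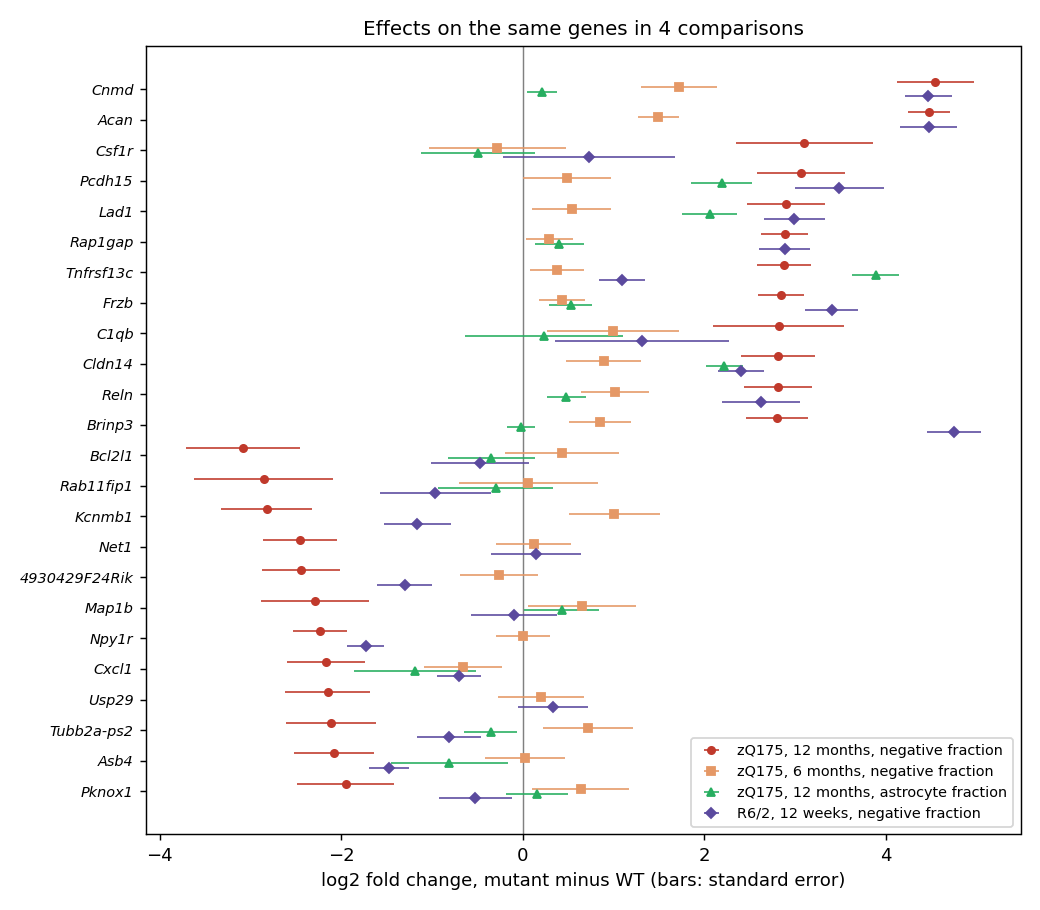
Fold change (log2, mutant minus WT, horizontal axis) with its standard error for the 24 leading genes in zQ175 negative fractions at 12 months, the same at 6 months, zQ175 astrocytes at 12 months and R6/2 negative fractions at 12 weeks. For Acan, Cnmd and Rap1gap the 12-month zQ175 and 12-week R6/2 points lie close together, and the 6-month points lie nearer to 0. A gene too dim to be tested in a comparison has no point there.

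Of the 476 genes called higher here that were also tested in R6/2, 231 (48.5%) were called higher there, beside 15.5% of all genes tested in R6/2, and 31 were called lower. Of the 387 called lower here, 133 (34.4%) were called lower there, beside 10.7% of all, and 8 were called higher. Taken from the R6/2 side, 12.5% of its 1848 increases and 10.1% of its 1319 decreases tested in both were called the same way in zQ175. Of the 125 genes called without any single sample, 124 were tested in R6/2. There, 61 of the 73 increases and 26 of 51 decreases were called in the same direction, and 4 in the opposite one. Those 4 were Cd22 and Bank1, called lower in R6/2, and Vcam1 and the clock gene Per2, called higher. Of them, Per2 is named after its values were seen. Across 12269 genes the effects of the models correlated with Pearson r = 0.35 and Spearman rho = 0.28, where genes are not independent replicates.

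The models also differed. The difference was called for 576 of 12605 genes (4.57%), 234 more positive in zQ175 (1.86%) and 342 more negative (2.71%). Fcgr2b, the inhibitory Fc receptor gene, differed by 4.31 ± 0.88, with fold changes of 2.55 in zQ175 and -1.76 in R6/2. In zQ175 it was at 7.06, 9.38, 6.40 and 6.44, against 5.45, 3.41, 4.79 and 5.42 in WT, highest in sample 31. Bank1 differed by 3.32 ± 0.70, Cd22 by 3.31 ± 0.62, the interferon-induced gene Ifi209 by 3.62 ± 0.85 and the B cell adaptor gene Blnk by 3.56 ± 0.96. By the classes above, Fcgr2b, Bank1, Ifi209 and Blnk were microglia-enriched and Cd22 was enriched in no fraction. Vcam1 differed by -2.61 ± 0.34 (adjusted p = 0.00126), with a fold change of 1.14 ± 0.20 in R6/2.

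The 5 largest negative differences were of genes called higher in R6/2 and not called in zQ175. Nrn1, neuritin, differed by -5.70 ± 0.94, the zinc transporter gene Slc39a12 by -4.98 ± 0.83 and the GABA receptor gene Gabrb1 by -4.88 ± 1.01. Aqp4, the water channel of astrocyte endfeet, differed by -4.36 ± 0.87 and the phospholipase gene Pla2g7 by -4.34 ± 0.73. Astrocyte markers moved with them: 19 of 21 were called higher in the R6/2 negative fraction, with a median of 2.09, beside 1 of 21 and a median of -0.003 in zQ175. Their part in these differences was not tested. By the classes above, Slc39a12, Gabrb1, Aqp4 and Pla2g7 were astrocyte-enriched and Nrn1 was enriched in no fraction. For all 5 genes, the mean of the WT negative fraction was lower at 12 weeks than at 6 weeks, 6 months or 12 months. Slc39a12 averaged 4.95 in WT at 12 weeks, against 9.08, 5.56 and 8.39. Aqp4 averaged 6.02, against 9.65, 6.33 and 8.65. The part of these WT levels was not tested either. The count of 576 became 326, 332, 373 and 1088 without R6/2 samples 13, 15, 17 and 21. It became 285 and 289 without zQ175 samples 30 and 32, and 290 and 325 when WT sample 35 or 36 was left out. With array weights it became 2267.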

How the data were processed

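RNA of sorted, pooled striatal cells was measured on Affymetrix mouse arrays. The deposited values are log2 expression values that the authors made with affy and RMA; limma is also listed (per the submitters' processing notes). Tool versions and the arrays that entered RMA together were not given in the sources used here. Medians of the 8 arrays of the main comparison were 6.46 to 6.54, and the values were used as deposited.

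GEO's platform annotation gave 1 gene symbol to 34958 of 45101 probe sets, several to 932 and none to 9211. Each gene was represented by its probe set with the highest mean over all arrays. A gene was tested when its mean over a fit's arrays reached the 40th percentile of probe set means. With R 4.3.3, the linear models of limma 3.58.1 (two-sided moderated tests) fitted 4 group means, zQ175 and WT at 6 and 12 months for the main comparison, with Benjamini-Hochberg adjustment over all genes tested. Differences of effects came from fits of the 4 groups concerned. The fits were tested on simulated data. The number of arrays limits the precision.

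Named genes were the 12 largest calls without overlap in each direction, the 4 called members of each of 38 lists with the lowest adjusted p (or the member with the lowest p), the 5 largest called differences in each direction of each other comparison, and Htt, Slc1a2 and Itgam. Itgam was too dim to be tested. The comparison and the lists were chosen with earlier results of these data known. Of 697 list entries, 74 had no named probe set and are not reported. Alternatives changed the probe set rule, the dim filter, the normalization, the variance model, covariates and the samples. Promoters came from RefSeq, matched by symbol for 2 of the 3 called cytokine genes, Cxcl1 and Cxcl10.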

Additional observations from a re-analysis of the deposited data

Results flagged for a closer look

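Each group of 4 samples was screened for a sample whose gap to its nearest neighbour was most of the group's range. Of 236 groups screened over named genes and lists, 8 were flagged. Chance flags about 1 in 20, which is a larger share than 8 of 236. The mean of the microglia markers was 10.68 in zQ175 sample 31, against 6.85 to 7.20 in the other zQ175 samples. Brinp3 was 9.27 in zQ175 sample 33, against 8.58 to 8.67 in the others. In WT sample 34, Tubb2a-ps2 was 10.48, against 10.26 to 10.29, and Asb4 was 11.45, against 11.13 to 11.14. In WT sample 35, Fzd4 was 11.67, against 11.25 to 11.29, and the mean of the pericyte and smooth muscle markers was 11.22, against 11.55 to 11.60. Cox5a was 12.16 in WT sample 37, against 12.28 to 12.30. The mean of the proliferation genes was 10.38 in WT sample 36, against 9.81 to 9.89.

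Effects that differed between ages, by limma's test of the difference, were 2.98 for Acan, 2.59 for Rap1gap, 2.42 for Frzb and -1.58 for Lox (12 months minus 6 months). Between fractions (negative minus astrocyte), they were 4.34 for Cnmd, 3.10 for Acan, 2.86 for Dpp6, 2.82 for Brinp3 and 2.77 for Slco4a1, and -3.66 for Bmp4, -2.80 for Uchl1, -2.44 for Insm1, -2.33 for Snhg11 and -2.33 for Tmem132c. Between models (zQ175 minus R6/2), they were 4.31 for Fcgr2b, 3.62 for Ifi209, 3.56 for Blnk, 3.32 for Bank1 and 3.31 for Cd22, and -5.70 for Nrn1, -4.98 for Slc39a12, -4.88 for Gabrb1, -4.36 for Aqp4 and -4.34 for Pla2g7.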

How the results depend on the processing

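The count of 875 genes ranged from 168 to 1560 when 1 of the 16 samples was left out. It was 207 with the 12-month samples alone, which have fewer samples, and 414 with the endothelial marker mean as a covariate. Among alternatives chosen after seeing the data, it was 37 with the microglia marker mean as a covariate (36 of them among the 875), 1 with the oligodendrocyte precursor mean, 69 without zQ175 sample 31 and WT sample 34 together, and 762 with microglia-enriched genes left out. Of the 125 genes called without any single sample, all 125 stayed called under repeated quantile normalization, array weights and no dim filter. The count was 103 with the 12-month samples alone, 62 without samples 31 and 34, and 33 with the microglia covariate. The direction was kept for 125 in each of these. With the precursor covariate, 1 of the 125 was called. With the mean of the probe sets of a gene, 107 were tested and 99 called. With the 60th percentile filter, 74 were tested and all 74 called. The 125 were picked by their calls in these same data, so these counts are not independent support for them. The share of higher calls was 55.5% in the reported fit, 42.2% with quantile normalization repeated, 44.9% with the mean of the probe sets of a gene, 45.8% with the 60th percentile filter and 72.9% with the 12-month samples alone. The age difference ranged from 1 to 34 with 1 sample left out, and called 11 genes with no dim filter, 0 with the 60th percentile filter and 1002 with array weights. The fraction difference ranged from 46 to 259 with 1 sample left out, and called 198 genes with Y-linked expression as a covariate and 76 without samples 31 and 34. With the replicate block it called 25 genes (16 more positive, 9 more negative), and of the 10 named differences it did not call Dpp6, Slco4a1, Snhg11 and Tmem132c (adjusted p = 0.0637, 0.0519, 0.0710 and 0.0711). The labels do not say what a shared number marks, and the deviations of same-numbered samples correlated from -0.30 to 0.45, with 3 of 8 correlating best with their own number. The model difference ranged from 285 to 1088 with 1 sample left out, and called 306 genes with the 60th percentile filter, 2267 with array weights and 366 with Y-linked expression. Under the precursor covariate, C1ql1 and Arc turned to -0.16 and -0.11. The causes were not tested. Of 2915 values of 96 named genes under alternatives, 2356 kept direction and side of the threshold, 537 lost it, 20 gained it and 2 reversed.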
